A study of Sus scrofa with 31 samples.

Results

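The hearts compared here were pig hearts kept in the condition labelled HOPE for 24 h or 48 h and then perfused warm for 2 h. The samples titled HOPE+NMP 24h (2 libraries) and HOPE+NMP 48h (2 libraries) were chosen by their titles, and make up 4 of the 31 libraries of the series. Genes with a mean of at least 10 TPM (transcript abundance scaled for gene length and library total) over the 7 libraries of the same arm were tested, which left 4388 of 25149 listed genes. NMP is normothermic machine perfusion. The labels do not spell out HOPE and SCS; the usual readings are hypothermic oxygenated perfusion and static cold storage. The other libraries of this arm are HOPE+NMP 3h (2 libraries) and SCS+NMP 24h (1 library). A separate arm followed stored, unwarmed hearts of 6 pigs at 0, 12, 24 and 48 h, in SCS (3 pigs) or in HOPE (3 pigs, numbered 2, 4 and 6). All groups are swine myocardium, biopsied and flash-frozen. The labels used here give no genotype, agent, perfusate or animal for the warmed libraries, so p-values measure the spread between these libraries, which may be technical.

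In oxygenated cold perfusion a heart is flushed continuously with a cold, oxygen-carrying solution, which slows metabolism while supplying some oxygen. Warm perfusion then brings the tissue back to body temperature, a phase in which reperfused heart muscle is known to switch on early response genes, heat shock genes and chemokines. The vessel lining is a well known site of preservation and reperfusion damage. Blood left in the vessels or added to a circuit carries red cell precursors, whose RNA encodes globins and enzymes of heme synthesis.

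Depth is unknown in the warmed hearts, since TPM keep no read totals. The labels name cardiomyocytes as the cell type, and the summed cardiomyocyte markers came to 53585 to 86642 TPM in the 6 HOPE+NMP libraries. Endothelial markers summed to 522 to 1075 TPM and fibroblast markers to 595 to 1304 TPM in the same libraries, so RNA of other cells of the wall was present. The SCS+NMP library stood apart, with 3599.8 TPM of cardiomyocyte markers. It enters the fit but adds no residual degree of freedom. Mitochondrially encoded genes took 47.9% and 39.8% of all TPM in the 24 h libraries and 47.4% and 40.001% in the 48 h libraries.

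After 48 h of HOPE and rewarming, red cell transcripts were far more abundant than after 24 h, and no gene was called lower. In limma's test with Benjamini-Hochberg adjustment, 3 of 4388 genes passed, which is 0.0684% of those tested. All 3 were higher. None was called lower, and at an unadjusted p under 0.05 there were 24 higher genes (0.547%) and 126 lower genes (2.87%). The 3 were HBB, which encodes the beta chain of hemoglobin, ALAS2, the red cell form of the first enzyme of heme synthesis, and an unnamed gene, ENSSSCG00000007978.

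HBB lies on chromosome 9 at 4800683 to 4801941 in RefSeq's Sscrofa11.1 annotation. Its level was 33.8 and 124 TPM in the 24 h libraries and 3086 and 1559 TPM in the 48 h libraries. Both 48 h libraries lay above both 24 h libraries, by a fitted log2 fold change of 5.05 ± 0.60 (SE) and an adjusted p of 0.0428 by limma. After 3 h of HOPE the same gene stood at 150.0 and 103 TPM, close to the 24 h values, and in the single SCS library at 6134 TPM. The SCS library thus had the highest level of the arm.

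ALAS2, on chromosome X at 47871519 to 47896041, was barely detected at 24 h, with 0.236 and 0.981 TPM. It reached 38.5 and 20.8 TPM at 48 h, a log2 fold change of 4.23 ± 0.51 (SE; limma adjusted p 0.0428). It reached the minimum mean of 10 TPM only through the 48 h and SCS libraries, so a gene of this kind had to differ to be tested, and its call carries less than the others. It read 1.84 and 1.54 TPM after 3 h of HOPE and 27.2 TPM after SCS. The 2 groups did not overlap, and only the 48 h and SCS libraries were above 20 TPM. ENSSSCG00000007978, for which no symbol was found, measured 47.4 and 108 TPM at 24 h and 3282 and 1749 TPM at 48 h, with a log2 fold change of 5.04 ± 0.48 (SE; limma adjusted p 0.0218). It had 137 and 94.5 TPM at 3 h and 2624 TPM after SCS. Here the SCS library lay between the 48 h libraries.

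HBM, a further globin, was at 1.53 and 2.13 TPM at 24 h and 46.6 and 13.8 TPM at 48 h, without passing (log2 fold change 3.24 ± 0.56, SE; limma adjusted p 0.208). Reads of globin genes can be shared between near-identical copies, so the split among them is uncertain. Of 13 red cell markers, 7 were found and 3 were tested, of which 2 passed. HBM, like ALAS2, reached the minimum of 10 TPM only through the 48 h and SCS libraries, so the number tested is no measure of the list. HBB and ENSSSCG00000007978 were above it in all 7 libraries. The untested ones, EPB42, SLC4A1, HBE1 and HBZ, were at or near 0. The summed red cell markers came to 35.8 and 128 TPM at 24 h and 3173 and 1594 TPM at 48 h, and to 154 and 107 TPM at 3 h. Neutrophil markers summed to 17.8 and 11.9 TPM at 24 h and 64.6 and 21.99 TPM at 48 h, and most of this was CXCL8, which other cells also make. The neutrophil genes S100A8 and S100A9 stayed under 2 TPM in every library, and MMP8 and CSF3R are listed at 0. B cell markers summed to 1.11 to 3.06 TPM in the HOPE libraries and to 4.27 TPM in the SCS library. T and NK cell markers summed to 21.99 and 46.2 TPM at 24 h and 71.0 and 40.1 TPM at 48 h. How far blood in the biopsies moved with the red cell genes was not tested. In bulk samples, fewer cells of a type and less RNA per cell cannot be told apart.

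**Figure D1:**
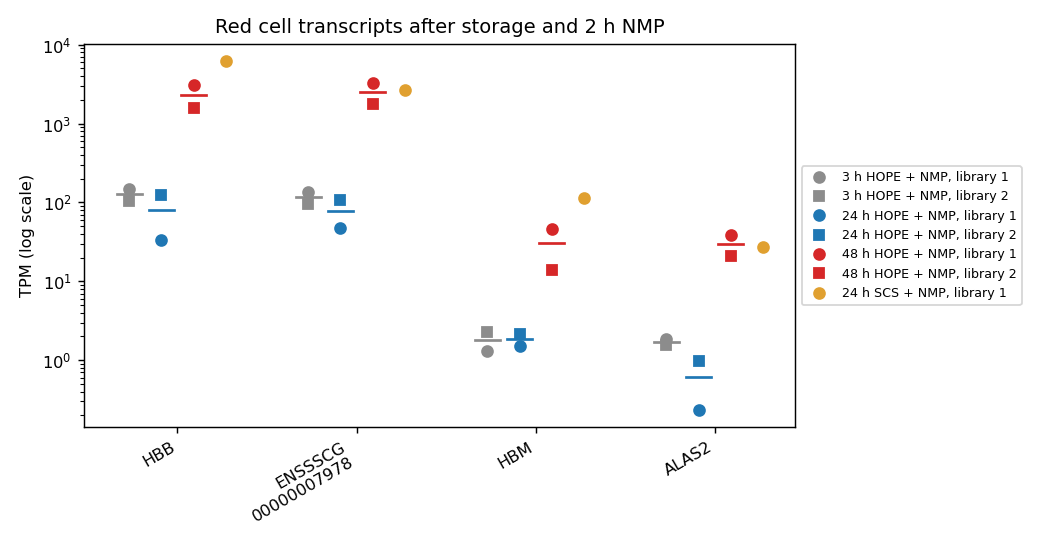
TPM on a log axis of 4 red cell transcripts or candidates in each warmed library, by preservation and storage time; bars are means of 2 libraries. In every panel both 48 h libraries sit far above both 24 h and both 3 h libraries, and the single SCS library sits near or above the 48 h libraries.

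The calls rested on few libraries. Where a 24 h or 48 h library is left out, the lone one is assumed to vary like the other groups. Without either 48 h library, or either 3 h library, no gene passed, and without the SCS library 1 passed. The 1 was ENSSSCG00000007978. Without the 24 h replicate 1 there were 3: HBB, ENSSSCG00000007978 and SMDT1, a regulator of mitochondrial calcium uptake, in place of ALAS2. Without the 24 h replicate 2 there were 5, the original 3 with MYL1 and the unnamed ENSSSCG00000016063, both lower. SMDT1 and ENSSSCG00000016063 were named after their values were seen. In all 18 alternatives the log2 fold change of HBB was above 0, at 4.13 to 5.98, and 6 of the 18 were past the threshold. For ALAS2 it was 2.58 to 5.56, with 5 past the threshold, and for ENSSSCG00000007978 it was 4.46 to 5.63, with 9.

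Across all tested genes the 48 h libraries read slightly lower. The median log2 fold change was -0.19 and 76.3% of genes were below 0. With TPM rescaled by median ratios the median was 0.06. Hence 35.2% of genes were lower and 3.42% higher without overlap as deposited, against 12.4% and 16.6% after rescaling. Small differences below are therefore given relative to the all-gene median, and those of single genes on the fitted scale. The spread between libraries was large: log2 differences had an SD of 0.70 between the 48 h libraries and 0.48 between the 24 h libraries.

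Among genes that did not pass, the other genes of the highest fold changes, filled in by their unadjusted p, served varied functions. TUBA1C, an alpha tubulin, was at 17.5 and 15.6 TPM at 24 h and 60.0 and 92.0 TPM at 48 h (log2 fold change 2.10 ± 0.31, SE; limma adjusted p 0.0924). The alpha tubulins share long stretches of sequence, so its reads may be shared with other copies. It had 32.2 and 25.01 TPM at 3 h, and 14.9 TPM after SCS, so the SCS library did not share the 48 h level. SLA-5, a class I antigen presentation gene of the swine major histocompatibility complex on chromosome 7, read 10.3 and 32.1 TPM at 24 h and 50.1 and 38.5 TPM at 48 h (limma adjusted p 0.996). Only 7 genes with a symbol met the conditions for the higher side of the list, against 10 for the lower side. The unnamed genes ENSSSCG00000021356 and ENSSSCG00000025162, picked after their values were seen, had far larger levels. The first was at 2186 and 2236 TPM at 24 h and 9571 and 6879 TPM at 48 h (limma adjusted p 0.0509), and the second at 3150.2 and 3468 TPM at 24 h and 14167 and 9125 TPM at 48 h (limma adjusted p 0.0921). In the SCS library they stood at 60094 and 95159 TPM.

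Of the 10 genes named at the lower end, none of which passed, 4 are known from the vessel wall. KDR, the main receptor for vascular endothelial growth factor, on chromosome 8 at 41809116 to 41856379, had 56.1 and 57.2 TPM at 24 h and 23.4 and 22.6 TPM at 48 h. The 24 h pair and the 48 h pair each agreed closely, and the log2 fold change was -1.26 ± 0.33 (SE; limma adjusted p 0.996). PDGFRB, the growth factor receptor of pericytes, on chromosome 2 at 151155753 to 151192818, had 28.8 and 28.6 TPM at 24 h and 9.97 and 8.80 TPM at 48 h (log2 fold change -1.52 ± 0.28, SE; limma adjusted p 0.296). At 3 h, KDR read 32.7 and 17.3 TPM and PDGFRB 16.6 and 11.8 TPM, so for both the 24 h libraries were the highest of the arm.

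The same order held for 2 genes of the vessel lining and for a secreted guidance factor. PTPRB, a phosphatase of endothelial junctions, had 37.3 and 31.1 TPM at 24 h, 18.4 and 14.8 TPM at 48 h and 25.3 and 17.7 TPM at 3 h. BCL6B, a transcription repressor known from endothelium, had 19.6 and 17.8 TPM at 24 h, 8.27 and 6.21 TPM at 48 h and 11.6 and 8.14 TPM at 3 h. SEMA3F, a secreted semaphorin, had 37.2 and 33.1 TPM at 24 h, 14.03 and 12.999 TPM at 48 h and 22.1 and 12.3 TPM at 3 h. For each the 24 h libraries were above all others, and the log2 fold changes were -1.004 ± 0.29, -1.27 ± 0.34 and -1.31 ± 0.32 (SE), with limma adjusted p of 0.996, 0.996 and 0.975.

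Over the endothelium list, 12 of 12 tested markers had fold changes below 0, against 76.3% of all genes. The list's median was -0.51, that is, -0.33 relative to all genes. Of the 12 markers, 8 were lower without overlap, against a background of 35.2%, and 6 after median-ratio rescaling, against 12.4%. After that rescaling 11 markers were below 0. ROBO4, a receptor of the vessel lining, was at 68.2 and 80.4 TPM at 24 h and 53.5 and 21.98 TPM at 48 h. VWF, a clotting factor carrier, was at 28.4 and 19.2 TPM at 24 h and 31.0 and 12.3 TPM at 48 h, in overlapping groups. RAMP2, a receptor partner of the vessel lining, was at 109.6 and 140.3 TPM at 24 h and 153 and 94.7 TPM at 48 h, also overlapping. The list median depended on the 48 h replicate 2: without it, the value relative to all genes was 0.04, and without the 48 h replicate 1 it was -0.74. THBD, a cell surface anticoagulant, read 113 and 155 TPM at 24 h and 72.3 and 66.1 TPM at 48 h. At 3 h ROBO4 read 82.3 and 21.2 TPM and THBD 186.8 and 51.4 TPM. For ROBO4 and THBD the 3 h libraries thus lay on either side of the 24 h libraries.

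In the pericyte and smooth muscle list, 5 of 6 tested members were below 0, against 76.3% of all genes. The median was -0.43, or -0.25 relative to all genes. KCNJ8, a potassium channel of pericytes, had 15.3 and 21.4 TPM at 24 h and 10.4 and 12.99 TPM at 48 h. At 3 h KCNJ8 had 39.1 and 30.2 TPM, above both 24 h libraries. DES, a muscle filament protein that heart muscle cells also make, was at 2709 and 3235 TPM at 24 h and 2665 and 3443 TPM at 48 h, in overlapping groups. MYH11, a defining smooth muscle gene, is listed at 0 in all 7 libraries, which may be a failed estimate.

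**Figure D2:**
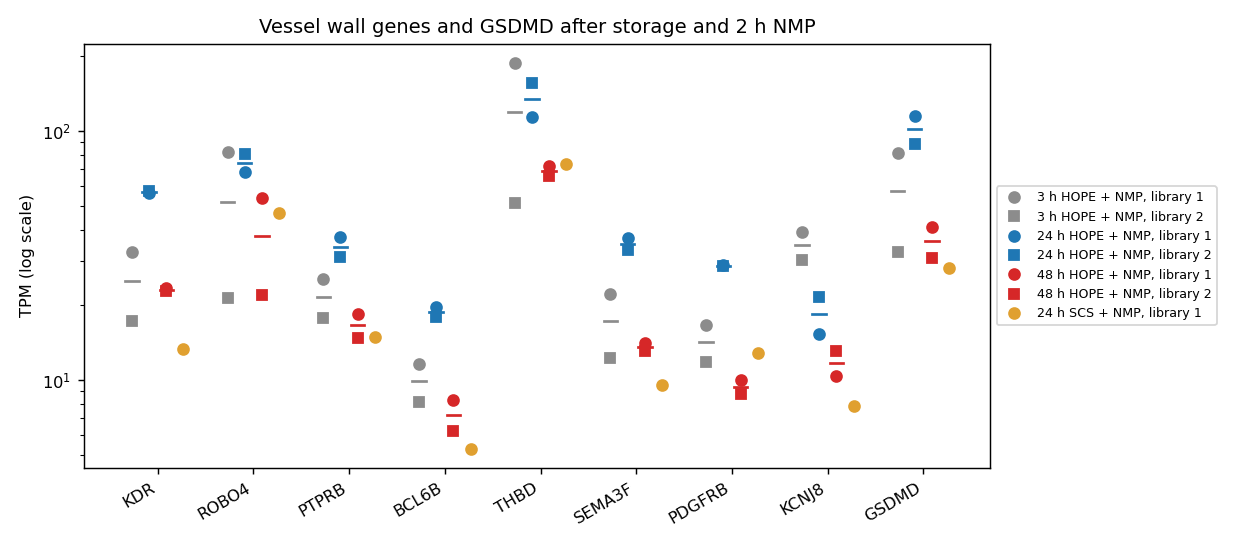
TPM on a log axis of vessel wall genes and GSDMD in each warmed library; bars are means of 2 libraries. For KDR, PTPRB, BCL6B, SEMA3F and PDGFRB both 24 h libraries lie above the 48 h and the 3 h libraries. For KCNJ8 both 3 h libraries lie above both 24 h libraries, and for ROBO4 and THBD the 3 h libraries lie on either side of them.

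The other genes at the lower end had other roles. GSDMD, which encodes gasdermin D, a pore former of inflammatory cell death, was at 114 and 88.6 TPM at 24 h and 41.0 and 30.9 TPM at 48 h (log2 fold change -1.47 ± 0.44, SE; limma adjusted p 0.996). It read 81.7 and 32.5 TPM at 3 h, so the 3 h libraries lay below both 24 h libraries. SWAP70, a protein of actin signalling, had 58.3 and 63.8 TPM at 24 h and 25.8 and 31.3 TPM at 48 h. MAST2, a kinase, had 45.3 and 40.4 TPM at 24 h and 24.3 and 14.8 TPM at 48 h. The gene entry of the miRNA ssc-mir-212 had 34.9 and 29.0 TPM at 24 h and 4.13 and 7.38 TPM at 48 h (log2 fold change -2.32 ± 0.38, SE, limma adjusted p 0.158). A poly(A) library captures tailed RNA that spans this entry, not the mature miRNA. MYL1, a myosin light chain typical of fast skeletal muscle and found in the atria and immature heart, was at 116 and 21.7 TPM at 24 h and 7.19 and 9.45 TPM at 48 h, where the first 24 h library stood far above the second.

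Of the genes of the extracellular matrix, the scaffold around heart cells, 23 of 26 tested members had fold changes below 0, against 76.3% of all genes. The list's median was -0.32, or -0.13 relative to all genes. Of the 26, 12 were lower without overlap, against 35.2% of all genes. After median-ratio rescaling 7 were lower and 2 higher without overlap, against 12.4% and 16.6% of all genes. COL15A1, a collagen of the basement membrane, was at 30.3 and 34.7 TPM at 24 h and 23.4 and 15.8 TPM at 48 h, and ELN, elastin, at 42.5 and 51.9 TPM at 24 h and 40.7 and 19.4 TPM at 48 h. COL3A1 and COL1A2, the collagens of fibrous tissue, overlapped between the groups, with COL3A1 at 378 and 508 TPM at 24 h and 458 and 511 TPM at 48 h. The list's value relative to all genes was 0.06 without the 48 h replicate 2. For splicing and RNA binding genes, 20 of 20 tested members were below 0, against 76.3% of all genes. Their median was -0.36, or -0.17 relative to all genes, and 17 were lower without overlap, against 35.2% of all genes. DDX17, an RNA helicase, had 41.0 and 40.9 TPM at 24 h and 19.6 and 23.2 TPM at 48 h, and SRSF6, a splicing factor, had 213 and 202 TPM at 24 h and 146 and 150.2 TPM at 48 h. After median-ratio rescaling 13 of the 20 were below 0. Of the 20, 5 were then lower without overlap, against 12.4% of all genes, and the median relative to all genes was -0.16. Without the 48 h replicate 2 it was -0.0075.

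Early response genes, which are switched on soon after stress, were split between the 48 h libraries. Their summed level was 4518 and 5625 TPM at 24 h and 8149.7 and 3923 TPM at 48 h. FOS was at 71.1 and 116 TPM at 24 h and 586 and 77.7 TPM at 48 h. EGR1 was at 187 and 263 TPM at 24 h and 627 and 318 TPM at 48 h, without overlap (log2 fold change 1.01 ± 0.43, SE; limma adjusted p 0.996). Of 19 tested members, 18 were above the all-gene median, and the list's median was 0.16, or 0.34 relative to all genes. That value was -0.18 without the 48 h replicate 1 and 1.00 without replicate 2, so the direction followed that 1 library. MYC, at the low end, had 411 and 362 TPM at 24 h and 357 and 281 TPM at 48 h.

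The chemokine readings had the same split between the 48 h libraries. CXCL2, which attracts neutrophils, was at 399.9 and 180.0 TPM at 24 h and 1050.2 and 314 TPM at 48 h. CXCL8, another neutrophil attractant, was at 13.6 and 6.34 TPM at 24 h and 51.8 and 14.8 TPM at 48 h, without overlap (log2 fold change 1.48 ± 0.61, SE; limma adjusted p 0.996). VCAM1, an adhesion molecule for white cells, read 176 and 105 TPM at 24 h and 92.0 and 82.4 TPM at 48 h. The inflammatory list held 17 tested members with a median of 0.03, or 0.22 relative to all genes, and without the 48 h replicate 1 this was -0.30.

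Interferon-induced genes went both ways. IFIT1 was at 25.4 and 36.2 TPM at 24 h and 53.8 and 50.2 TPM at 48 h, and IFIT2 at 22.1 and 13.7 TPM at 24 h and 45.5 and 27.0 TPM at 48 h. MX2 was at 42.9 and 38.9 TPM at 24 h and 27.7 and 17.8 TPM at 48 h in the opposite order. None passed, and of 17 tested members 3 were higher and 5 lower without overlap, against 3.42% and 35.2% of all genes. After median-ratio rescaling 6 were higher and 2 lower, against 16.6% and 12.4%. The list's value relative to all genes was 0.34, and -0.08 without the 48 h replicate 1. In the SCS library IFIT1 and IFIT2 stood at 142 and 64.3 TPM.

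**Figure D3:**
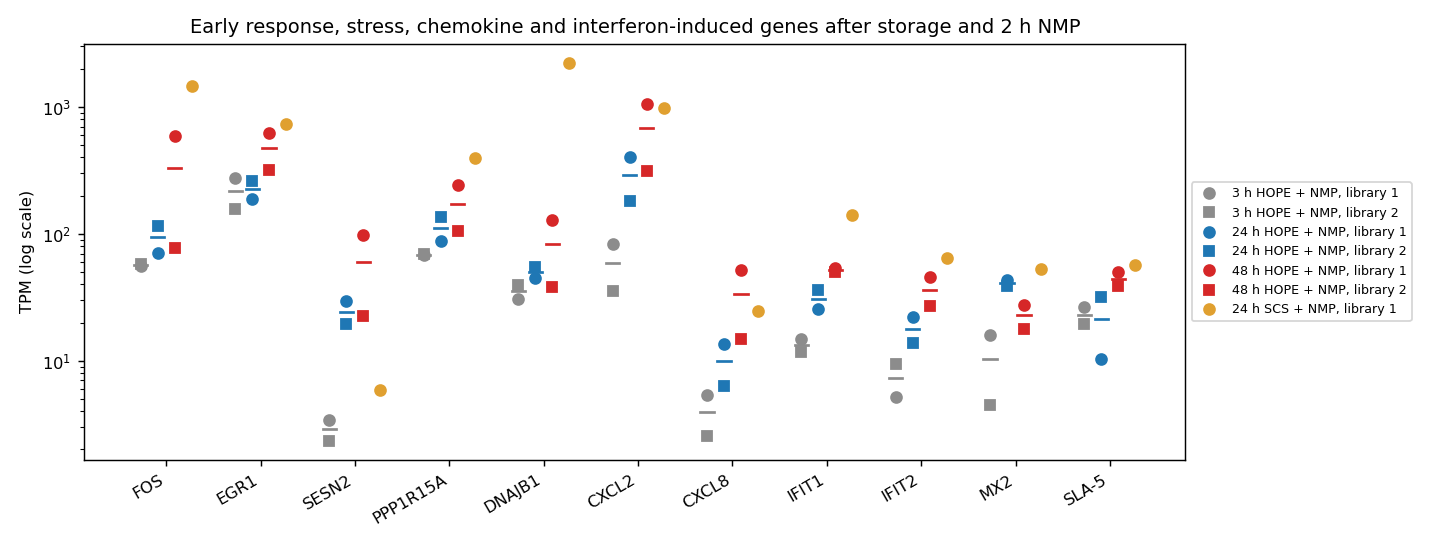
TPM on a log axis of early response, stress, chemokine, interferon-induced and antigen presentation genes in each warmed library; bars are means of 2 libraries. The first 48 h library is the higher of the pair for all 11 genes, most widely for FOS, CXCL8 and SESN2.

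The named stress genes SESN2, PPP1R15A and DNAJB1 were also split between the 48 h libraries. SESN2, a stress sensor, had 29.4 and 19.4 TPM at 24 h and 98.2 and 22.6 TPM at 48 h, and PPP1R15A, a brake on the protein synthesis stress response, 87.5 and 135 TPM at 24 h and 241 and 104 TPM at 48 h. DNAJB1, a heat shock co-chaperone, had 44.5 and 55.0 TPM at 24 h and 128 and 38.2 TPM at 48 h. All 3 had 1 high 48 h library and overlapping groups. Over 18 tested heat shock genes the median was 0.15 above all genes, with 0.04 under quantile normalization and 0.34 without the 24 h replicate 2. Over 14 genes of endoplasmic reticulum stress it was 0.16 above. That list did not hang on the first 48 h library: its value was 0.13 to 0.25 over 18 alternatives, highest without the 48 h replicate 1.

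Relative to all genes, sarcomere genes had a median of 0.24 over 21 tested members, and of 0.02 under quantile normalization. ACTC1, the cardiac actin, was at 3956 and 4756 TPM at 24 h and 2375 and 3441 TPM at 48 h. MYPN, a sarcomere scaffold, was at 33.7 and 37.3 TPM at 24 h and 23.9 and 12.5 TPM at 48 h. TCAP, the titin cap, was among the 5 largest gains in TPM of named genes without overlap, at 4204 and 3845 TPM at 24 h and 4329 and 4219 TPM at 48 h, a difference smaller than its SE. Natriuretic and stress peptide genes had a median of 0.43 relative to all genes over 8 tested members, and of 0.10 without the 48 h replicate 2. NPPA, a hormone of stretched heart muscle, was at 30.8 and 28.6 TPM at 24 h and 30.3 and 125 TPM at 48 h, so 1 library set its mean. Calcium cycling genes had a median of -0.18 over 16 tested members, close to that of all genes. RYR2, the calcium release channel, was at 49.4 and 60.5 TPM at 24 h and 39.4 and 42.0 TPM at 48 h. TRDN, its partner triadin, was at 295 and 319 TPM at 24 h and 198 and 199 TPM at 48 h. For RYR2 and TRDN both 48 h libraries lay below both 24 h libraries.

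Of the mitochondrially encoded genes, COX1, a subunit of complex IV, gained most in TPM, and its groups did not overlap, at 58804 and 61242 TPM at 24 h and 69168 and 75498 TPM at 48 h. Among named genes whose groups did not overlap, ND4, ND6, ND3 and ND4L, subunits of complex I, had the largest losses in TPM; ND4 was at 20629 and 21703 TPM at 24 h and 18243 and 18268 TPM at 48 h, and the fitted log2 fold changes were -0.21, -0.14, -0.26 and -0.30. ND5, of the same complex, was at 14965 and 10917 TPM at 24 h and 11205 and 8962 TPM at 48 h, in overlapping groups. None of the 13 genes passed. Mitochondrial transcripts overlap and are cut from shared precursors, so counts of neighbours are not independent. ND6 is encoded on the other strand, and how strand was used in counting is not known here. ND4 and ND6 lay close to the all-gene median, and read above 0 after median-ratio rescaling, which moved that median from -0.19 to 0.06. After this rescaling the groups overlapped for ND6, ND3 and ND4L, and ND4 was higher at 48 h without overlap. Nuclear genes of the respiratory chain had a median of -0.03 over 35 members, with 30 above the all-gene median. Relative to all genes this was 0.15, but -0.17 without the 48 h replicate 2, 0.53 without replicate 1 and -0.01 under quantile normalization. The 37 ribosomal protein genes had a median of 0.18 above all genes, with 36 above it, and of -0.02 against all genes under quantile normalization.

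**Figure D4:**
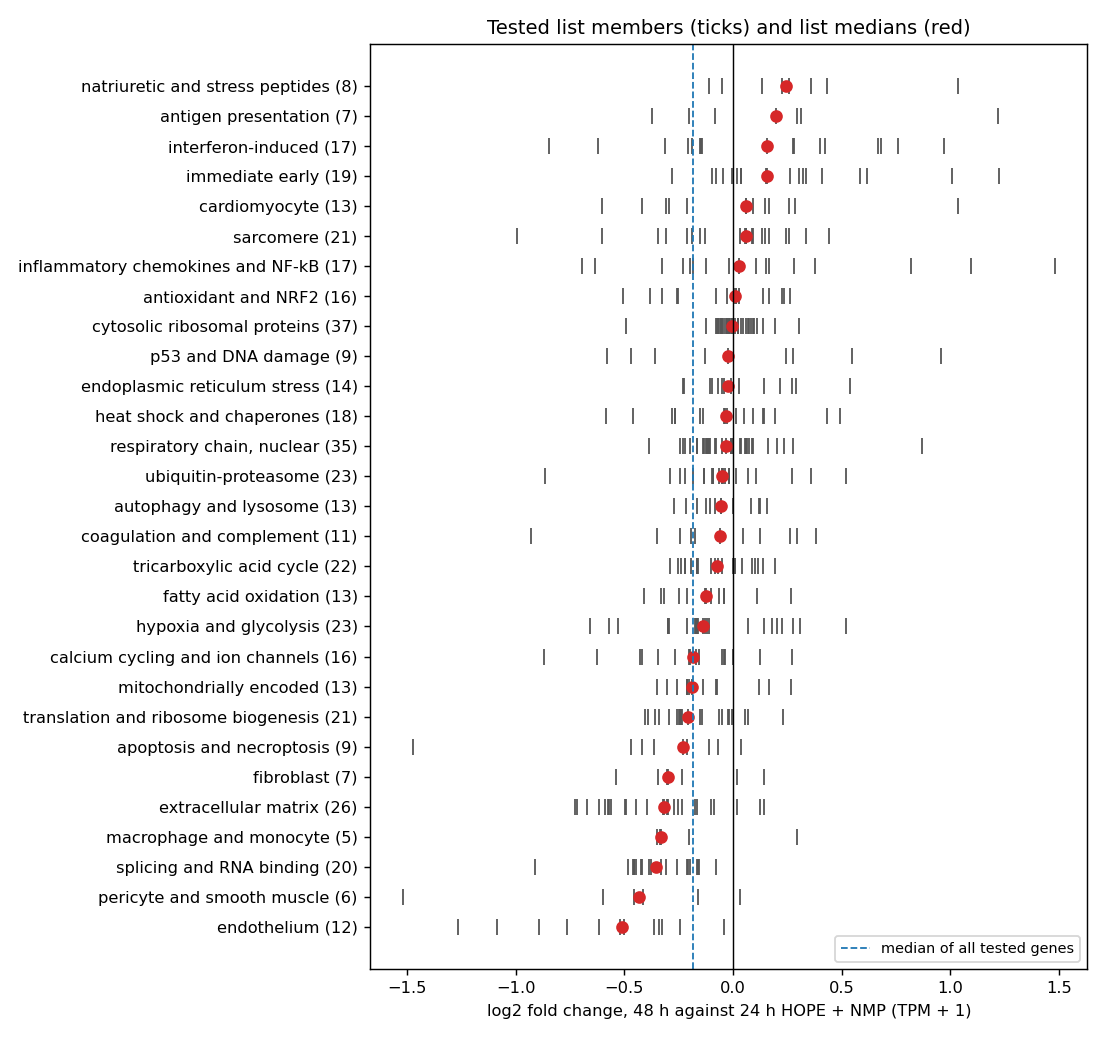
Log2 fold change of 48 h against 24 h HOPE and NMP for every tested member (ticks) of each list with at least 5 tested members, with list medians as red points and the all-gene median as a dashed line. Endothelium, pericyte and smooth muscle, splicing, macrophage and matrix lists have the lowest medians, and natriuretic, antigen presentation, interferon and early response lists the highest.

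The stored hearts of the other arm, sampled without warming, were set beside these results, since they passed through the same storage times. In 3 HOPE pigs at 48 h against 24 h, limma called none of 14141 genes (0.0% of those tested), with 81 (0.573%) at an unadjusted p under 0.05. By edgeR on recovered reads it was 0 with 130, and by DESeq2 1 lower with 224. That gene was ANGPTL1, a secreted angiopoietin-like protein, named after its value was seen, with a log2 fold change of -2.41 and a DESeq2 adjusted p of 0.00256. On simulated counts of these hearts DESeq2 made 25 false calls, against 1 by limma and 2 by edgeR, so this lone call carries little. With the pig as a block no gene passed and 492 had an unadjusted p under 0.05. Kits and units differed, so no test was made across arms.

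HBB was at 1892, 89.4 and 254 normalized counts in pigs 2, 4 and 6 at 24 h and at 130.1, 135 and 611 at 48 h. ALAS2 was at 406, 27.7 and 43.0 at 24 h and 30.1, 33.9 and 63.0 at 48 h. For both genes 2 of 3 pigs were higher at 48 h and pig 2 was much lower, so the 3 pigs had no common direction. KDR had 2184, 1335 and 2207 normalized counts at 24 h and 1776, 1772 and 2355 at 48 h, and PDGFRB 1944, 1346 and 2366 at 24 h and 1822, 1499 and 2557 at 48 h. Their fitted log2 fold changes were 0.07 ± 0.52 and 0.06 ± 0.32 (SE), and the difference between arms was not tested. The fit did not pair the pigs, so its SEs, also that of MYL1 below, include the spread between pigs. By pig, KDR changed by -0.30, 0.41 and 0.09 in pigs 2, 4 and 6. MYL1 was at 116, 400.0 and 92.1 at 24 h and 29.4, 111 and 66.0 at 48 h, lower in 3 of 3 pigs, with a fitted log2 fold change of -1.42 ± 0.75 (SE) that did not pass. Of the 25 genes named for their fold change or their difference in TPM, 23 were found by the same ID in the stored hearts.

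**Figure D5:**
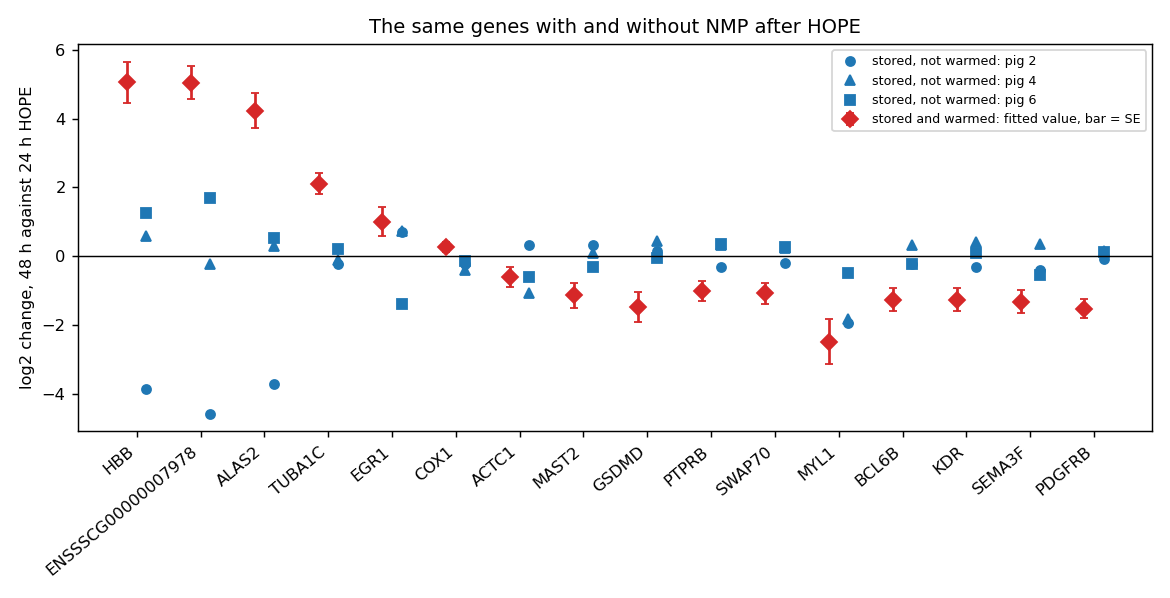
Log2 change from 24 h to 48 h of HOPE for the named genes, in stored and warmed hearts (fitted value with SE) and in each of the 3 unwarmed HOPE pigs. Warmed-heart values for HBB, ALAS2 and ENSSSCG00000007978 lie far above 0. For these genes pig 2 lies far below 0, pig 4 at 0.59, 0.28 and -0.24, and pig 6 at 1.26, 0.54 and 1.70. For KDR, PDGFRB and PTPRB the unwarmed pigs lie near 0, with KDR at -0.30, 0.41 and 0.09 in pigs 2, 4 and 6.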

How the data were processed

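Arm 2 (2 libraries each of HOPE+NMP 3h, 24h and 48h, 1 of SCS+NMP 24h) was deposited as values that sum to the same round total in each column; the authors' values were therefore read as TPM, divided by gene length and total. The stored hearts were deposited as normalized counts, a signal that the authors made by dividing gene counts by 1 factor per library; whole reads were recovered in the 12 HOPE libraries (22583205 to 34646234 reads, 100% whole at a tolerance of 1e-06). The submitters' processing notes name Trimmomatic 0.36, STAR 2.5.2b, HISAT2 2.2.1, Subread 1.5.2, featureCounts 2.0.6, DESeq2 and, as the genome, Sscrofa11.1, but not their roles. Both arms used poly(A) kits, of different makes, and the warmed hearts' RNA received a spike-in, per the labels' protocols; no scaling by it was made. For strand use in counting, nothing is given in the sources used here. The arm 2 table has 11 more columns without a matching sample, which were left aside.

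Genes with a mean of at least 10 were fitted with limma 3.58.1 in R 4.3.3 (lmFit, contrasts, eBayes with a mean trend) on log2(value + 1), over all 7 arm 2 libraries or all 24 stored-heart libraries, with Benjamini-Hochberg adjustment and a threshold of 0.05. This scale understates changes of low genes. edgeR 4.0.16 and DESeq2 1.42.0 were run on the recovered counts as alternatives. Scripts were tested on simulated data. Pigs pair the stored hearts: deviations of same-pig HOPE libraries correlated with r of 0.399 to 0.73 in 18 pairs. Named genes were the 10 highest and 10 lowest fold changes among genes that passed, filled by the smallest unadjusted p among genes with an absolute log2 fold change of at least 1 and no overlap; the 5 largest gains and losses in TPM without overlap; and the 2 highest and 2 lowest tested members of each list. Names that are Rfam accessions were not taken as symbols, a choice made after the table was seen. The comparison, the lists and the rule were chosen with earlier results of these data known. Positions came, by symbol, from RefSeq's Sscrofa11.1 table.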

Additional observations from a re-analysis of the deposited data

Results flagged for a closer look

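For 12 of the 128 named genes found by ID in both arms, both warmed 48 h libraries lay on one side of both 24 h libraries while all 3 stored, unwarmed HOPE pigs moved the other way from 24 h to 48 h. The same held for 164 of 3398 tested genes found in both arms, which is 4.83%. Genes were named in part for groups without overlap or for extreme fold changes. This makes the pattern more likely among them, so these counts cannot be compared. The difference between the arms was not tested. Among genes higher in the warmed hearts, HBM had a log2 fold change of 3.24 there and of -3.65, -0.44 and -0.05 in pigs 2, 4 and 6. Its levels in these pigs were low, at 29.97, 4.96 and 14.3 normalized counts at 24 h and 1.47, 3.39 and 13.8 at 48 h. HBM was not tested in the stored hearts. In the warmed hearts it reached the minimum mean of 10 TPM only through the 48 h and SCS libraries. COX1 had 0.27 against -0.21, -0.39 and -0.13 in the pigs, DNAJA1, a heat shock co-chaperone, 0.43 against -0.03, -0.33 and -0.09, and EIF1, a translation initiation factor, 0.23 against -0.09, -0.01 and -0.12.

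Among genes lower in the warmed hearts, only COL15A1 kept separate groups after median-ratio scaling; the other 7 did not. LAMP1 and PDIA6 lay at -0.03 and -0.04 relative to the all-gene median. Of these lower genes, 3 encode matrix proteins. COL15A1 had a log2 fold change of -0.72 against 0.29, 0.41 and 0.34 in pigs 2, 4 and 6. ELN had -0.72 against 0.26, 0.59 and 0.19, and FBLN1, fibulin, -0.54 against 0.08, 0.72 and 0.28. STAT3, a cytokine signal transducer, had -0.70 against 0.03, 0.22 and 0.07, and BAX, a cell death factor, -0.47 against 0.30, 0.05 and 0.04. TYROBP, an adaptor of myeloid cells, had -0.35 against 0.03, 0.10 and 0.06, LAMP1 of the lysosome -0.22 against 0.01, 0.24 and 0.15, and PDIA6 of the endoplasmic reticulum -0.22 against 0.07, 0.10 and 0.08.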

How the results depend on the processing

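The 3 calls in the warmed hearts stayed at 3 without the mean trend, with a replicate block and with a mean of at least 10 TPM over the 4 libraries compared, the last chosen after seeing the data. With a pseudocount of 5 there were 4, the same 3 and ENSSSCG00000021356. They came to 1, ENSSSCG00000007978, with a pseudocount of 0.1 or median-ratio scaling, and to 0 with no filter, a mean of at least 1 TPM, quantile normalization, mitochondrially encoded genes left out or only the 4 libraries compared. Leaving out each library in turn gave 0 to 5. Under quantile normalization COX1 read 0.00 and TCAP -0.12. That method keeps only ranks, so a gene of equal rank in each library must read 0, and the value for COX1 says nothing of its level. Median-ratio scaling turned ND4 to 0.038 and ND6 to 0.11, and moved the median of all genes from -0.19 to 0.06. For TCAP under quantile normalization the cause was not tested. The stored hearts gave 0 calls in all alternatives run except DESeq2, with 1. Equal replicate numbers in the warmed hearts are not stated to mark shared animals; deviations of same-numbered libraries correlated with r of 0.09 to 0.384, values that 2 libraries per group mirror in the crossed pairs. The block with replicate numbers gave 3 calls, and 229 genes at an unadjusted p under 0.05 against 150. Depth is unknown in the warmed hearts, so no limit set by counting can be given.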

Other observations

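Among lists not described above, genes of hypoxia and glycolysis had a median log2 fold change of 0.05 above that of all genes over 23 tested members, with -0.09 without the 48 h replicate 2 and 0.19 without replicate 1. ENO1, a glycolytic enzyme, was at 188 and 163 TPM at 24 h and 108 and 113 TPM at 48 h, and ANGPTL4, a lipase inhibitor, at 341 and 209.7 TPM at 24 h and 387 and 381 TPM at 48 h. Both were non-overlapping in opposite directions, with log2 fold changes of -0.66 ± 0.44 and 0.52 ± 0.89 (SE). Of the 23 members, 3 were lower and 1 higher without overlap, against 35.2% and 3.42% of all genes. Of 9 tested cell death genes 8 were below 0, against 76.3% of all genes. Their median was -0.04 relative to all genes, and 4 of the 9 were below 0 after median-ratio rescaling. In the ubiquitin and proteasome list, TRIM55, a muscle ubiquitin ligase, was at 149 and 91.7 TPM at 24 h and 57.3 and 71.0 TPM at 48 h. Macrophage markers were below 0 in 4 of 5 tested, against 76.3% of all genes, with a median of -0.15 relative to all genes. C1QA, a complement gene of macrophages, was at 41.1 and 89.3 TPM at 24 h and 74.9 and 74.6 TPM at 48 h.

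The direction of the metabolic lists depended on which 48 h library was left out. Relative to all genes, fatty acid oxidation stood at 0.06 and the tricarboxylic acid cycle at 0.11. Without the 48 h replicate 2 these were -0.34 and -0.22, and without the 48 h replicate 1 they were 0.38 and 0.62. Among 84 tested genes named by an Rfam accession, the median was -0.66 and 30 were lower without overlap, which is 35.7% against 35.2% of all genes.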
